A study of Mus musculus with 24 samples.

Results

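The SENP genes encode the cysteine proteases of the SUMO system. SUMO is a small protein that is attached to lysines of other proteins, and SENP enzymes cut its precursor to the mature form and take it off its targets again. Senp1 and Senp2 act broadly, Senp3 and Senp5 are nucleolar and prefer SUMO-2 and SUMO-3, Senp6 and Senp7 trim SUMO chains, and Senp8 acts on the related modifier NEDD8 instead of SUMO. In fat cells SUMO modifies regulators of differentiation that include PPARγ and C/EBPβ, and SENP2 removes SUMO from C/EBPβ. The 7 mouse genes Senp1, Senp2, Senp3, Senp5, Senp6, Senp7 and Senp8 were taken by name from the 53465 genes of the count table, and all 7 were among the 14785 genes that passed the filter on low counts.

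Poly(A) RNA was sequenced from mouse adipocytes that had been grown and induced in a dish, starting with the stromal vascular fraction of epididymal (eWAT) or inguinal (iWAT) white fat. The 24 libraries form 8 groups of 3. In each depot, cells came from Senp2flox/flox mice (Cont) or from Senp2flox/flox;Adipoq Cre mice (aKO), so every group carries the floxed Senp2 alleles and the groups labelled aKO add a Cre recombinase driven by the adiponectin promoter, which acts once a cell switches on adiponectin. Cells of each genotype received an siRNA against Cebpb (siCEBPb) or siNS, a name the labels do not explain. The labels give no age and do not say whether replicates are separate mice or cultures, so p-values measure the spread between these libraries only. The comparisons ask whether the other SENP genes differ where Senp2 is targeted, and what Cebpb knockdown does to the family.

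In 23 libraries 8435494 to 15388744 reads were assigned to genes. The library iWAT aKO siNS replicate 2 had 603585, and its counts of the SENP genes were 6 for Senp8 to 41 for Senp5; it was kept, and values that turn on it are also given without it. In the other 23 libraries the lowest count of a SENP gene was 81, for Senp8. Of the adipocyte markers, 12 of 12 were detected, and Adipoq stood at 58.2 to 187 CPM, the count scaled to a common library size. The adipocyte markers summed to 692.6 to 3583 CPM in 23 libraries, and the leukocyte markers to 69.0 to 2590 CPM. Sums of different lists do not give shares of cells. All 10 fibroblast and progenitor markers were detected too, with sums of 22570 to 36860 CPM in 23 libraries and 59910 CPM in the shallow one, and none of the markers of leukocytes, endothelium, mesothelium, smooth muscle or dividing cells was at 0 throughout. In such bulk RNA, fewer cells of a type and less RNA per cell cannot be told apart.

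Per kilobase of exon, Senp3 had the highest level of the family, with a mean of 20.6 CPM per kb over the 24 libraries (SD 1.84). Senp6 followed at 11.4 (SD 1.12), Senp5 at 9.42 (SD 2.21) and Senp2 at 7.46 (SD 0.508). Senp1, Senp8 and Senp7 were the lowest, at 2.57, 2.23 and 1.76 CPM per kb. Senp2 therefore held a mean of 13.5% of the family's summed level per kb, and between 12.4% and 15.3% in single libraries without the shallow one. With the length of the longest coding transcript in place of all exons, Senp2 at 11.4 CPM per kb stood above Senp5 at 10.8, and Senp7 at 5.11 above Senp1 at 4.64 and Senp8 at 2.33; Senp3 and Senp6 stayed first and second.

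Senp5 varied most across the groups. Its highest group mean, 94.1 CPM in iWAT aKO siCEBPb, was 1.95 times its lowest, 48.2 CPM in eWAT aKO siNS. For the other 6 genes this ratio lay between 1.15, for Senp2 and Senp1, and 1.39, for Senp8. When the 8 groups were ordered by their means, with all libraries, all 7 pairs of neighbouring groups overlapped for Senp1, Senp2, Senp7 and Senp8. Groups further apart in these orders could still separate. Senp2 was at 52.7 to 57.1 CPM in eWAT Cont siNS and at 49.0 to 50.8 CPM in eWAT Cont siCEBPb. Senp8 was at 6.57 to 7.80 CPM in eWAT Cont siNS and at 8.16 to 9.34 CPM in eWAT aKO siNS. The orders of Senp3 and Senp5 each had 2 steps without overlap, and that of Senp6 had 3. Steps of this kind were not counted for all genes, so these numbers have no background beside them. Without iWAT aKO siNS replicate 2 there were 2 such steps for Senp3, 3 for Senp5, 4 for Senp6 and 1 for Senp7. For Senp5 these were the steps from iWAT Cont siCEBPb (77.2 CPM) down to eWAT Cont siCEBPb (65.8 CPM), from there to iWAT Cont siNS (58.2 CPM), and from iWAT aKO siNS (55.3 CPM) down to eWAT aKO siNS (48.2 CPM).

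**Figure D1:**
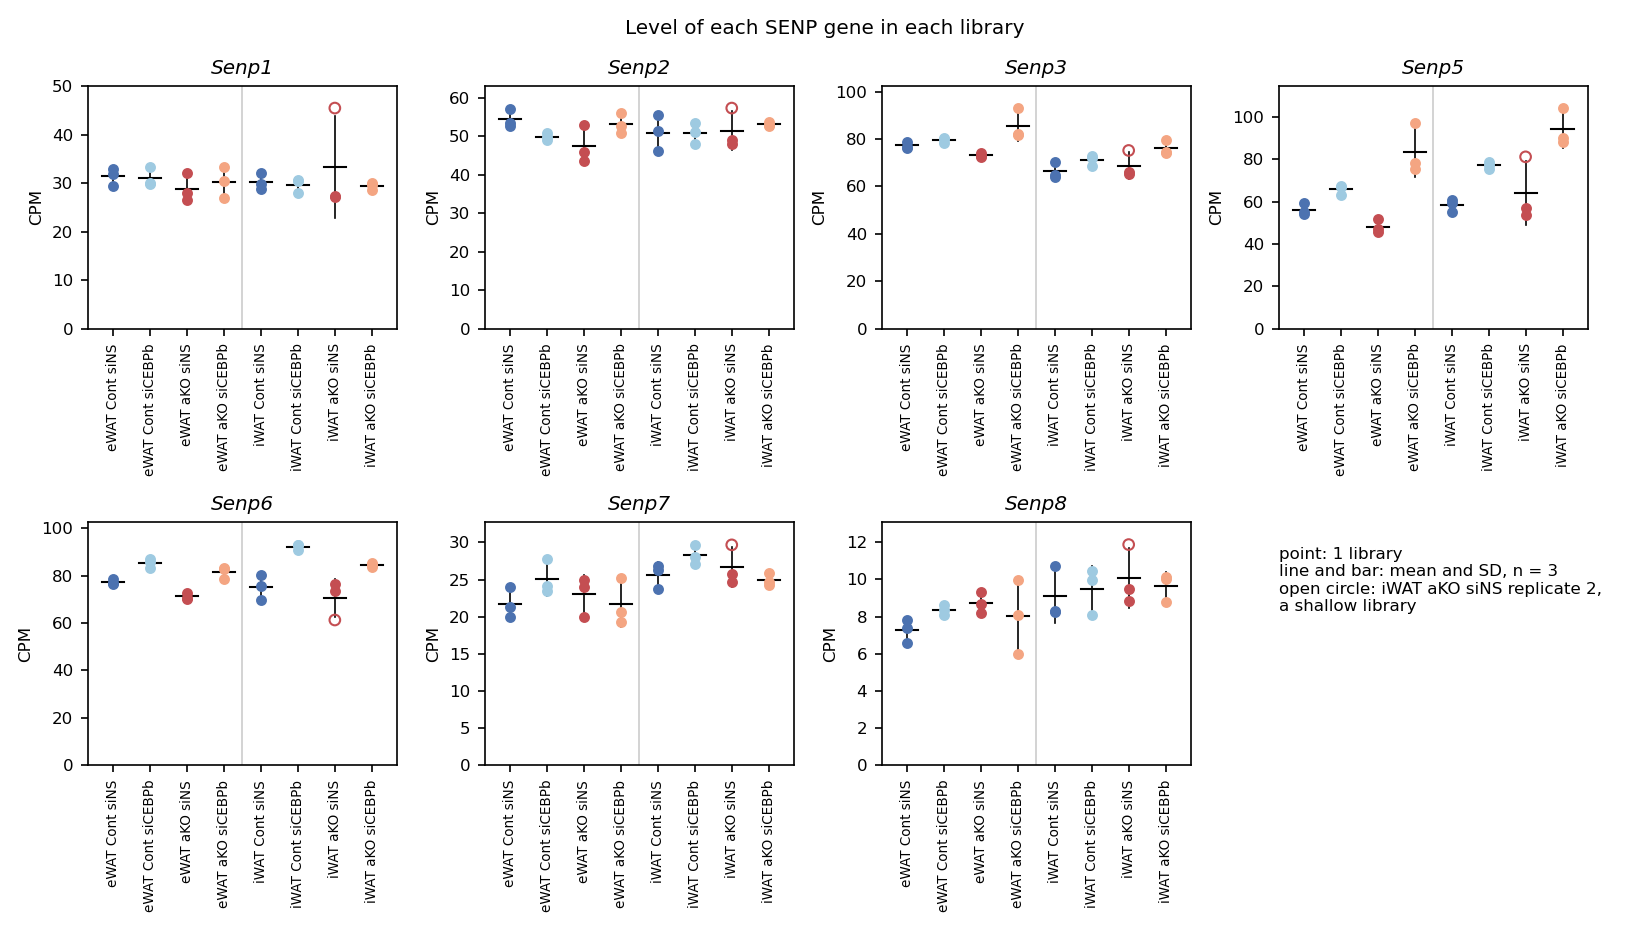
Level of the 7 SENP genes in CPM (vertical axis, starting at 0) for the 8 groups; points are libraries, lines and bars are the mean and SD of 3, and the open circle is the shallow library iWAT aKO siNS replicate 2. Senp5 ranged from 45.8 to 104 CPM with its highest values in the siCEBPb groups, while Senp2 stayed between 43.7 and 57.4 CPM.

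Senp2 itself, on the forward strand of chromosome 16 (GRCm38, 22009484 to 22049269, ENSMUSG00000022855), was not called different between aKO and Cont in any of the 4 pairs of groups. In eWAT with siNS the Cont libraries had 57.1, 53.6 and 52.7 CPM and the aKO libraries 53.0, 43.7 and 46.1 CPM. The highest aKO library lay between the lower Cont libraries, so the groups overlapped. The log2 fold change was -0.20 ± 0.07 (SE, 3 libraries a group; adjusted p = 0.0519, edgeR quasi-likelihood test with Benjamini-Hochberg adjustment over all tested genes). In eWAT with siCEBPb the values were 50.8, 49.9 and 49.0 CPM in Cont and 56.0, 50.9 and 52.8 CPM in aKO, a log2 fold change of 0.094 ± 0.07 that was not called, although the groups just failed to overlap. In iWAT with siNS they were 55.5, 51.3 and 46.2 CPM in Cont and 49.1, 57.4 and 48.0 CPM in aKO, where 57.4 is the shallow library with 29 counts. With siCEBPb in iWAT they were 48.0, 53.4 and 51.0 CPM in Cont and 53.7, 52.9 and 52.8 CPM in aKO. The iWAT groups overlapped under both siRNAs. Averaged over the 4 comparisons, Senp2 was at 0.982 times its Cont level, with a 95% interval of 0.931 to 1.04 times. The eWAT siNS difference passed the threshold in 9 of 31 alternative fits, among them the fit without iWAT aKO siNS replicate 2 (-0.19, adjusted p = 0.0322; range over the alternatives 0.00233 to 0.271). The labels do not say which exons are floxed, and a whole-gene count also takes reads from the exons that remain, so these counts do not check the label aKO.

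None of the other 6 genes was called different between aKO and Cont with siNS. In eWAT 0 of the 7 SENP genes passed the threshold, against 20.4% of all genes tested, and in iWAT 0 of 7 passed, against 15.2%. At an unadjusted p under 0.05 there were 3 in eWAT and 0 in iWAT, the DESeq2 Wald test called 0 in each, and limma voom called 2 in eWAT and 0 in iWAT. In eWAT the aKO libraries were all below the Cont libraries for Senp3, Senp5 and Senp6, and all above them for Senp8. In iWAT the groups overlapped for all 7. Gaps of this kind, here and elsewhere, have no share of all genes beside them. Without iWAT aKO siNS replicate 2, which enters the shared estimate of the spread, 2 of 7 were called in eWAT, beside 25.8% of all genes in that fit, both lower in aKO: Senp2, as given above, and Senp5 (-0.22, adjusted p = 0.0394; range over its alternatives 0.0128 to 0.263). The median log2 fold change of the 7 genes was -0.12 in eWAT and -0.024 in iWAT, beside 0.0036 and -0.0009 for all genes. The summed level of the 6 genes other than Senp2 was 269 to 274 CPM in the 3 eWAT Cont siNS libraries and 245 to 262 CPM in the 3 aKO ones, so the aKO libraries were the lower ones. In iWAT it was 257 to 271 CPM in Cont, 257 and 258 CPM in 2 aKO libraries and 305 CPM in the shallow aKO library, so the groups overlapped with and without it. Under siCEBPb this sum had the higher mean in aKO in both depots, with groups that overlapped. It was 288.4 to 299.0 CPM in Cont and 297.9 to 335.0 CPM in aKO in eWAT. In iWAT it was 298.4 to 314.5 CPM in Cont and 311.8 to 331.6 CPM in aKO.

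Under siCEBPb the aKO libraries had more Senp5 than Cont in both depots. Senp5 was the only SENP gene called in either comparison, 1 of 7 in eWAT beside 10.8% of all genes and 1 of 7 in iWAT beside 10.0%. Senp5 (chromosome 16, 31959672 to 32003287, reverse strand, ENSMUSG00000022772) had 67.4, 67.1 and 62.9 CPM in eWAT Cont siCEBPb and 97.2, 78.2 and 75.3 CPM in eWAT aKO siCEBPb. Every aKO library was above every Cont library, a gap with no share of all genes beside it. It rose 1.27-fold, a log2 fold change of 0.35 ± 0.086 (adjusted p = 0.0075 in the edgeR fit). In iWAT the Cont siCEBPb libraries had 75.1, 78.9 and 77.4 CPM and the aKO siCEBPb libraries 104, 88.2 and 90.0 CPM, again without overlap, a rise of 1.22-fold (log2 0.29 ± 0.087, adjusted p = 0.0324). The rises in eWAT and iWAT may not be independent. Same-numbered aKO siCEBPb libraries deviated together between depots (r of 0.424 to 0.748). In eWAT the call was lost without aKO siCEBPb replicate 1, the library at 97.2 CPM (log2 0.22, adjusted p = 0.122; range over 31 alternatives 0.00135 to 0.122). In iWAT it was lost with the DESeq2 Wald test, without aKO siCEBPb replicate 1 and without any 1 of the 3 Cont siCEBPb libraries (log2 0.21 to 0.30 in these fits; adjusted p over all 31 alternatives 0.00522 to 0.241).

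The knockdown was not equal in the genotypes. Cebpb was lower in aKO than in Cont under siCEBPb, by -0.88 ± 0.17 on the log2 scale in eWAT (adjusted p = 0.00134, edgeR) and by -0.97 ± 0.19 in iWAT (adjusted p = 0.00155). All 10 leukocyte markers in eWAT and 9 of 10 in iWAT fell in the same comparisons, and their sum was 338 to 391 CPM in eWAT Cont siCEBPb and 83.4 to 182 CPM in aKO, 323 to 352 CPM in iWAT Cont siCEBPb and 69.0 to 161 CPM in aKO. Mesothelial markers fell too, 5 and 4 of 6 tested, with sums of 24.5 to 31.3 CPM in Cont and 6.81 to 8.11 CPM in aKO over both depots, as did 3 and 4 of 6 endothelial markers. Of the adipocyte markers 0 of 12 fell and 0 and 1 rose. Dividing cell markers fell, 3 and 2 of 8. Of 10 fibroblast and progenitor markers 1 rose and 2 fell in each depot. Of 7 smooth muscle and pericyte markers 1 rose and 1 fell in each depot. The part of these differences in the Senp5 result was not tested.

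Averaged over depots and siRNAs, Senp6 was the only member called between genotypes, 1 of 7 beside 32.4% of all genes. Senp6, a chain-trimming SUMO protease, fell by 0.084 ± 0.030 on the log2 scale, to 0.943 times the Cont level (adjusted p = 0.0302, edgeR). The call was lost with no filter on low counts, when iWAT Cont siNS replicate 3 or iWAT aKO siNS replicate 3 was left out (adjusted p over 30 alternatives 0.0102 to 0.387). The 95% intervals of the average for Senp1, Senp3, Senp7 and Senp8 all held 0 and together ran from -0.19 to 0.22, so that a change common to the 4 comparisons and larger than this lies outside them. The averages, that of Senp2 included, take eWAT and iWAT libraries as independent. Same-numbered ones deviated together between depots in Cont siNS (r of 0.270 to 0.425) and aKO siCEBPb (0.424 to 0.748), so the intervals may be too narrow. Senp5 stood at 0.094 ± 0.046 (adjusted p = 0.119), the mean of a rise under siCEBPb and of values of -0.22 and -0.032 under siNS.

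**Figure D2:**
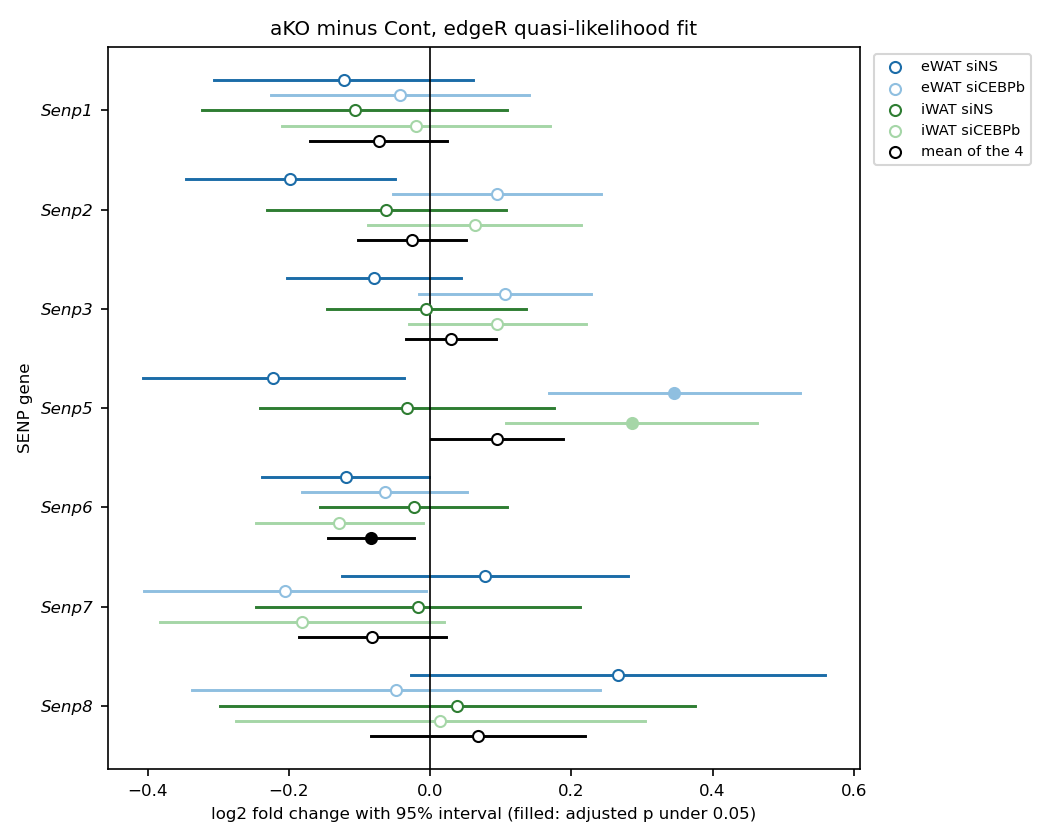
Log2 fold change of aKO against Cont (horizontal axis, with 95% interval) for the 7 SENP genes in the 4 pairs of groups and on average (black); filled points have an adjusted p under 0.05. The filled points are Senp5 under siCEBPb in both depots and the average of Senp6 at -0.084, and the siNS values of Senp5 lie below 0.

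Cebpb encodes C/EBPβ, a transcription factor that is switched on early in fat cell differentiation and then induces PPARγ and C/EBPα. After siCEBPb, Cebpb fell in each of the 4 comparisons, with log2 fold changes of -1.73 and -2.47 in eWAT Cont and aKO and of -1.79 and -2.69 in iWAT Cont and aKO. The SENP genes that were called all rose. They were Senp3, Senp5 and Senp6 in eWAT aKO (3 of 7, beside 35.7% of all genes called and 16.6% called higher), Senp5 and Senp6 in iWAT Cont (2 of 7, beside 24.3% and 10.3%) and Senp3, Senp5 and Senp6 in iWAT aKO (3 of 7, beside 31.3% and 13.6%). In eWAT Cont 0 of 7 were called, beside 26.8% and 11.8%; there 3 had an unadjusted p under 0.05, DESeq2 called 0 and limma voom 2. With 7 genes these counts are small, and the family was not tested as a set. The 4 comparisons share no library with each other, but between depots they may still not be independent. Same-numbered libraries deviated together between depots in aKO siCEBPb (r of 0.424 to 0.748) and in Cont siNS (0.270 to 0.425).

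Senp5 showed the largest response among the 7 genes. In eWAT Cont its level was 54.2, 55.0 and 59.3 CPM with siNS and 67.4, 67.1 and 62.9 CPM with siCEBPb. The groups did not overlap, but the log2 fold change of 0.23 ± 0.088 missed the threshold (adjusted p = 0.0557, edgeR) and was called in 5 of 31 alternative fits, including that without iWAT aKO siNS replicate 2 (0.22, adjusted p = 0.029; range 0.00277 to 0.189). Without that library 31.7% of all genes were called in eWAT Cont. In eWAT aKO the siNS libraries had 51.7, 45.8 and 47.0 CPM and the siCEBPb libraries 97.2, 78.2 and 75.3 CPM. The lowest siCEBPb library was far above the highest siNS library, and Senp5 rose 1.74-fold (log2 0.80 ± 0.089, adjusted p = 3.74e-08). In iWAT Cont, 60.5, 54.8 and 59.2 CPM with siNS stood against 75.1, 78.9 and 77.4 CPM with siCEBPb, a 1.33-fold rise without overlap (log2 0.41 ± 0.091, adjusted p = 0.00115). In iWAT aKO, 53.4, 81.1 and 57.1 CPM with siNS stood against 104, 88.2 and 90.0 CPM with siCEBPb. The 81.1 CPM is the shallow library's 41 counts, and every siCEBPb library was above it; the rise was 1.65-fold (log2 0.72 ± 0.098, adjusted p = 1.31e-06). The last 3 calls held in 31 of 31 alternative fits each.

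In eWAT the Senp5 response to siCEBPb was larger in aKO than in Cont, by 0.57 ± 0.12 on the log2 scale (interaction, adjusted p = 0.00598, edgeR; 1 of 7 SENP genes called beside 6.34% of all genes). The call held in 31 of 31 alternative fits, with values of 0.44 to 0.64. In iWAT the same difference was 0.32 ± 0.13 and missed the threshold (adjusted p = 0.209); there 0 of 7 were called, beside 3.51% of all genes, with 1 at an unadjusted p under 0.05 and 0 called by DESeq2 and by limma voom. In each depot the aKO siCEBPb library with the most Senp5, 97.2 and 104 CPM, was the one with the least Cebpb, 20.1 and 12.7 CPM, and also the one with the least Adipoq, 73.4 and 71.6 CPM. In each depot it is the library numbered 1. Replicates 2 and 3 went the other way. In eWAT they had 32.6 and 29.5 CPM of Cebpb beside 78.2 and 75.3 CPM of Senp5. In iWAT they had 19.2 and 23.5 CPM of Cebpb beside 88.2 and 90.0 CPM of Senp5. The 3 eWAT Cont siCEBPb libraries, with the most Cebpb among the siCEBPb libraries at 42.3 to 57.3 CPM, had the least Senp5 among them. Within these 3, the library with the most Cebpb, 57.3 CPM, also had the most Senp5, 67.4 CPM. Among the siNS groups, Senp5 was lowest in eWAT aKO, where Cebpb was 141 to 158 CPM, while eWAT Cont had 156 to 181 CPM of Cebpb and more Senp5. The iWAT Cont siNS libraries had less Cebpb, 110 to 145 CPM, and 54.8 to 60.5 CPM of Senp5. Pearson r of Senp5 with Cebpb (log2 CPM) was -0.945 over the 23 libraries without the shallow one. These libraries share the split into siNS and siCEBPb. The relation of Senp5 to the Cebpb level was not tested.

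**Figure D3:**
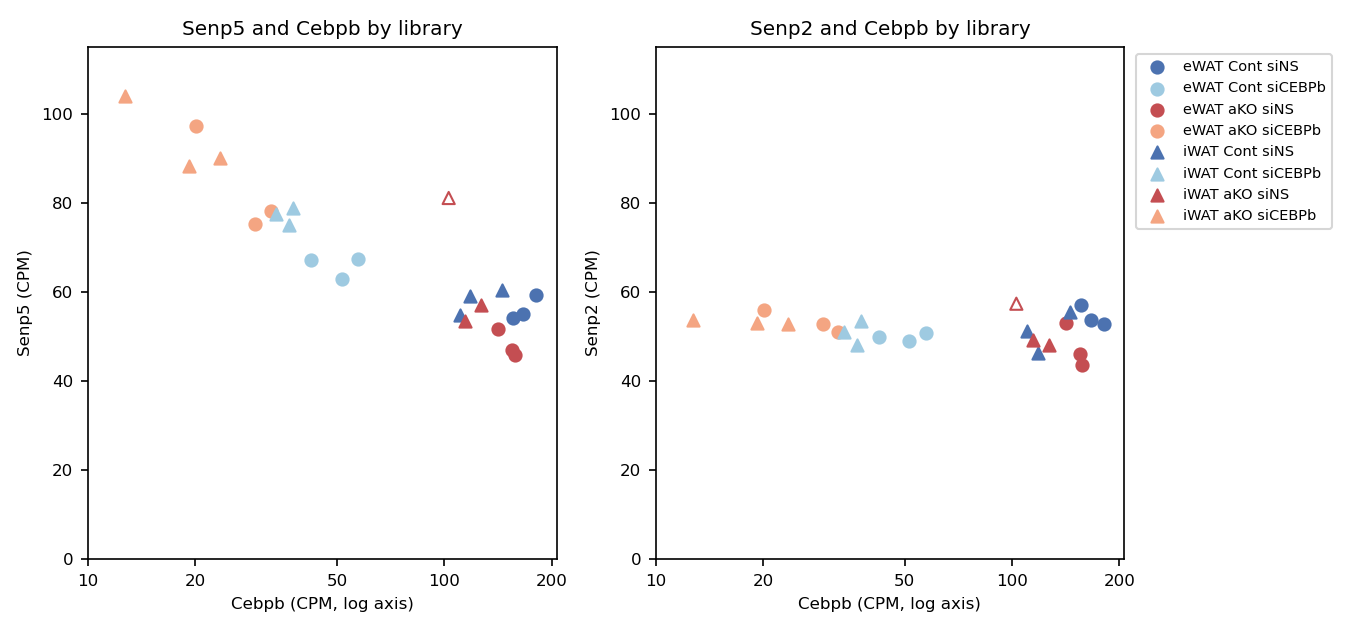
Senp5 (left) and Senp2 (right) in CPM against Cebpb in CPM (horizontal axis, log scale) in the 24 libraries; circles are eWAT, triangles iWAT, colours are genotype and siRNA, and the open triangle is the shallow library. Senp5 is highest where Cebpb is lowest, up to 104 CPM at 12.7 CPM of Cebpb, and Senp2 stays between 43.7 and 57.4 CPM.

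Senp6 (chromosome 9, 80066903 to 80144953, forward strand, ENSMUSG00000034252) rose in 3 of the 4 knockdown comparisons. In iWAT Cont its level went from 75.6, 69.7 and 80.5 CPM with siNS to 90.7, 93.2 and 92.9 CPM with siCEBPb, without overlap (1.23-fold, log2 0.30 ± 0.059, adjusted p = 0.000341, edgeR). In eWAT aKO it went from 70.7, 72.7 and 70.4 CPM to 82.9, 78.8 and 83.2 CPM (1.15-fold, adjusted p = 0.00841). In iWAT aKO it went from 76.5, 61.3 and 73.5 CPM, where 61.3 is the shallow library, to 83.6, 84.4 and 85.3 CPM (1.14-fold, adjusted p = 0.0225). In each of these the siCEBPb libraries were all above the siNS libraries. In eWAT Cont the values were 76.6, 78.6 and 77.0 CPM against 87.2, 85.8 and 83.1 CPM, also apart, with a log2 fold change of 0.14 ± 0.057 that was not called (adjusted p = 0.0694). For Senp6 no difference in response between genotypes was called: it was 0.055 ± 0.081 in eWAT and -0.10 ± 0.087 in iWAT, with 95% intervals of -0.11 to 0.22 and -0.28 to 0.073. The eWAT aKO call was lost with no filter on low counts, and the iWAT aKO call was lost with no filter, with the 2 groups fitted alone and without iWAT aKO siNS replicate 3.

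Senp3 (chromosome 11, 69673115 to 69682084, reverse strand, ENSMUSG00000005204), the protease that removes SUMO from ribosome assembly factors in the nucleolus, was called with siCEBPb in aKO of both depots and not in Cont. In eWAT aKO its level was 74.0, 72.4 and 72.9 CPM with siNS and 93.0, 82.3 and 81.6 CPM with siCEBPb, without overlap (1.17-fold, adjusted p = 0.00324, edgeR). In iWAT aKO it was 65.1, 75.2 and 65.9 CPM with siNS, 75.2 being the shallow library, and 79.5, 74.2 and 74.5 CPM with siCEBPb (1.15-fold, adjusted p = 0.0228); the shallow library lay among the siCEBPb values. In Cont the log2 fold changes were 0.043 in eWAT and 0.10 in iWAT, and the difference between genotypes was not called (0.19 ± 0.084 and 0.10 ± 0.092, adjusted p = 0.203 and 0.646). The eWAT call was lost without aKO siCEBPb replicate 1 (log2 0.15, adjusted p = 0.0666; range 0.00154 to 0.0666). The iWAT call was lost without aKO siCEBPb replicate 1, aKO siNS replicate 1 or aKO siNS replicate 3, with no filter and with the 2 groups alone (range of adjusted p 0.00586 to 0.302).

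The remaining 4 genes were not called in any knockdown comparison. Senp1 (chromosome 15, reverse strand) had log2 fold changes of -0.022 to 0.066 and lay between 26.6 and 33.4 CPM in 23 libraries, with 45.5 CPM from 23 counts in the shallow one. Senp2 had -0.13 and -0.0090 in Cont and 0.16 and 0.12 in aKO; the eWAT difference of 0.29 ± 0.10 between genotypes missed the threshold (adjusted p = 0.0855) but passed without iWAT aKO siNS replicate 2 (0.29, adjusted p = 0.0484), without eWAT aKO siNS replicate 1 (0.37, adjusted p = 0.0274) and with limma voom. For this difference 11.2% of all genes were called without iWAT aKO siNS replicate 2, and 13.9% with limma voom. Senp7 (chromosome 16, 56048338 to 56190012, forward strand) had 0.21 and 0.14 in Cont and -0.077 and -0.025 in aKO. Senp8 (chromosome 9, 59734259 to 59750710, reverse strand), the NEDD8 protease, had the fewest reads and the widest intervals, from -0.40 to 0.49 over the 4 comparisons.

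**Figure D4:**
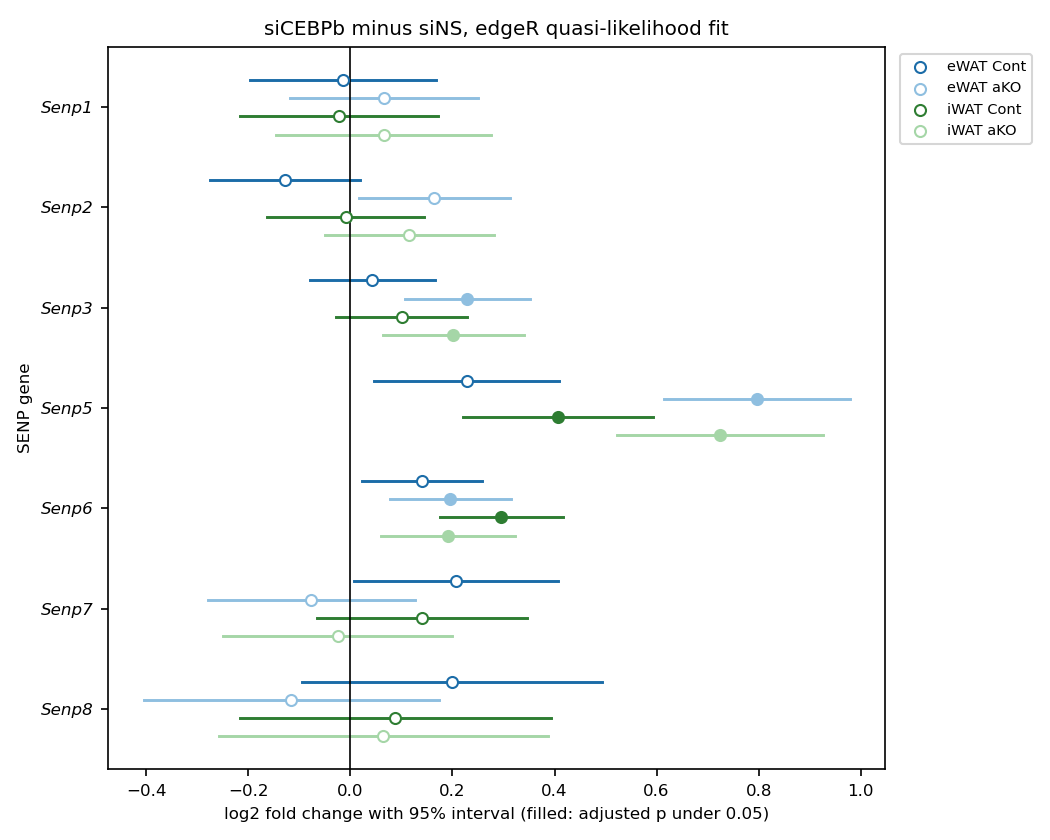
Log2 fold change of siCEBPb against siNS (horizontal axis, with 95% interval) for the 7 SENP genes in the 4 pairs of groups; filled points have an adjusted p under 0.05. All filled points are right of 0 and belong to Senp3, Senp5 and Senp6, and Senp5 in aKO cells lies farthest right at 0.80 and 0.72.

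Other cell types' markers moved with the knockdown as well. All 10 leukocyte markers fell in each of the 4 comparisons, from sums of 1487 to 2590 CPM in the eWAT siNS libraries to 83.4 to 391 CPM with siCEBPb, and in iWAT from 1397 to 2460 CPM, with 815 CPM in the shallow library, to 69.0 to 352 CPM. Adipocyte markers fell in 4 and 10 of 12 in eWAT Cont and aKO and in 4 and 9 of 12 in iWAT. Of the 7 smooth muscle and pericyte markers 5 rose in each comparison, and 1 fell in eWAT Cont, iWAT Cont and iWAT aKO. The dividing cell markers fell, 8 of 8 in each Cont comparison and 3 and 1 of 8 in aKO. Of 10 fibroblast and progenitor markers, 2 rose and 3 fell in eWAT Cont and 2 and 5 in eWAT aKO. In iWAT 2 rose and 4 fell in Cont, and 1 rose and 6 fell in aKO. Of 6 mesothelial markers tested, 3 rose and 1 fell in eWAT Cont, 3 rose and 2 fell in iWAT Cont, and none was called in aKO. Of 6 endothelial markers 2 rose in each Cont comparison and 1 in each aKO comparison. The part of these marker changes in the rise of Senp5, Senp6 and Senp3 was not tested. No marker list was at 0, and the leukocyte list stayed at 69.0 CPM or more.

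The promoters of the 7 genes were searched for short sequences, and the matches were set beside those in all promoter windows. RefSeq (GRCm38.p6) gave 11 windows for the 7 genes, each 300 bases long, from 250 bases before to 50 bases after a transcript start. Both strands were searched for TTGCNNAA, a core of the sequence C/EBP proteins bind, and for TGACGTCA, the cyclic AMP response element; no match of the first overlapped a match of the second. Senp5 and Senp6 are shown because they rose, and Senp2 and Senp7 because they hold the matches. Capitals mark a match.
Senp5 (chr16:32003238-32003537, reverse strand): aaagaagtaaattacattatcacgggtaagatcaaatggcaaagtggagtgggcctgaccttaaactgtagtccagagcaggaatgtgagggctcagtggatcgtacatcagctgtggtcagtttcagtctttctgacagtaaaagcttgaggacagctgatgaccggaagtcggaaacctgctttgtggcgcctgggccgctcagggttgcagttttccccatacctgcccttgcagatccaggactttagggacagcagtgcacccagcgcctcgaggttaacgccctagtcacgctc
Senp6 (chr9:80066653-80066952, forward strand): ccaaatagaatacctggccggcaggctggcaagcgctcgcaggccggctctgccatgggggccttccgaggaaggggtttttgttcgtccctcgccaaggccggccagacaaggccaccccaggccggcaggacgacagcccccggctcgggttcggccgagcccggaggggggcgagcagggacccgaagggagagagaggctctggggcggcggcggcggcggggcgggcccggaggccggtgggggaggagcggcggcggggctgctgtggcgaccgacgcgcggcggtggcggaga
Senp2 (chr16:22009234-22009533, forward strand): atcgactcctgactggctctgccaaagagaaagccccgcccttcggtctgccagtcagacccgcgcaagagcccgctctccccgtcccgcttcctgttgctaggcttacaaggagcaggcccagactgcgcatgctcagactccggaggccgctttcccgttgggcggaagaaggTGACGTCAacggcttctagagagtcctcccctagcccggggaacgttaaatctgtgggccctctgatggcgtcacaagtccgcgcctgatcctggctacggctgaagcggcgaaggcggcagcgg
Senp7, upstream start (chr16:56057280-56057579, forward strand): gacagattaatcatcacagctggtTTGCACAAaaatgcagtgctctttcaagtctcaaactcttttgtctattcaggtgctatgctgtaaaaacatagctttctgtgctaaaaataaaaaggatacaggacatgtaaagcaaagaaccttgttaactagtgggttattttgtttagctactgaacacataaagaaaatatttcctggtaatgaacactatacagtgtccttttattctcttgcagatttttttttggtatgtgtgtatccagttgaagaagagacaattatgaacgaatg

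TTGCNNAA was found in 1 of the 11 windows, at an upstream start of Senp7, 226 bases before that start, and in 10.8% of all 32851 promoter windows. TGACGTCA was found in 1 of the 11, in Senp2, 75 bases before the start, and in 1.79% of all windows. The windows of Senp5 (52.0% G and C), Senp6 (75.3%) and Senp3 held neither. A match is a description of the letters, and a missing match says only that these letters are not in this window.

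None of the 28 comparisons of iWAT with eWAT was called. Of all genes 1.20% (Cont siNS), 3.35% (Cont siCEBPb), 0.352% (aKO siNS) and 1.44% (aKO siCEBPb) were called. At an unadjusted p under 0.05 there were 7 of the 28, DESeq2 called 0 and limma voom 3. Limma voom called 5.76%, 24.6%, 7.38% and 4.38% of all genes in the same order. Senp3 was lower in iWAT in each of the 4, by log2 fold changes of -0.22, -0.16, -0.14 and -0.17, and the first, in Cont siNS, passed without iWAT aKO siNS replicate 2 (-0.21, adjusted p = 0.0194; range over 32 alternatives 0.0194 to 0.278). In Cont siNS the Senp3 levels were 78.9, 76.4 and 76.5 CPM in eWAT and 70.2, 64.8 and 63.9 CPM in iWAT, without overlap. The fit without iWAT aKO siNS replicate 2 called 7.5% of all genes in Cont siNS and 11.4% in Cont siCEBPb. Senp5 was 0.23 higher in iWAT in Cont siCEBPb, which was called without iWAT aKO siNS replicate 2 (0.24, adjusted p = 0.039; range 0.000998 to 0.413). The genotype effect was not called different between depots for any of the 7 under either siRNA, where 0% and 0.00676% of all genes were; none had an unadjusted p under 0.05, and DESeq2 and limma voom called 0.

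Outside the SENP family, Desi1, which encodes a SUMO protease of a separate fold, fell in aKO with siNS. Of the 3 other SUMO proteases Desi1, Desi2 and Uspl1, it was the only one called, by -0.33 ± 0.060 in eWAT (adjusted p = 0.000199, edgeR) and -0.38 ± 0.068 in iWAT (adjusted p = 0.000275). Of all genes 20.4% and 15.2% were called in these comparisons. Under siCEBPb Desi1 was at -0.028 and 0.011, and this difference between the siRNAs passed the threshold in both depots (0.30 ± 0.084, adjusted p = 0.0312, and 0.39 ± 0.091, adjusted p = 0.0141, edgeR). For this difference 6.34% and 3.51% of all genes were called. With siNS, 8 of 8 dividing cell markers also fell in aKO in each depot. Of 10 leukocyte markers 7 and 5 fell, and of 12 adipocyte markers 6 and 3 rose. Mesothelial markers fell, 3 of 6 tested in each depot. Their sums were 24.7 to 28.5 CPM in Cont and 6.09 to 7.83 CPM in aKO without the shallow library. Of 6 endothelial markers 4 and 3 fell and 1 rose in each depot. Of 7 smooth muscle and pericyte markers 2 and 4 fell. Of 10 fibroblast and progenitor markers 5 and 3 rose and 1 fell in each depot. The part of these marker changes in the Desi1 result was not tested. No member of the SUMO protein and conjugation list (17 genes) was called by edgeR in any of the 4 genotype comparisons, beside 10.0% to 20.4% of all genes. Of its 68 values 10 had an unadjusted p under 0.05. Averaged over the 4, 1 of the 17 rose and 3 fell, beside 32.4% of all genes called. Pias4, a SUMO ligase, rose by 0.17 ± 0.043, and among those that fell were Sumo3 and the ligase gene Zfp451, with log2 fold changes of -0.13 ± 0.047 and -0.12 ± 0.043. The list's median was 0.0074, beside -0.0010 for all genes.

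With siCEBPb, 1 of the 17 genes rose and 1 fell in eWAT Cont, 5 rose and 1 fell in eWAT aKO, 0 rose and 0 fell in iWAT Cont, and 2 rose and 1 fell in iWAT aKO, beside 26.8%, 35.7%, 24.3% and 31.3% of all genes called in either direction. Pias4 rose by 0.24 ± 0.082 in eWAT Cont and by 0.30 ± 0.080 in eWAT aKO (adjusted p = 0.0311 and 0.00361, edgeR). Among the 5 genes for SUMO-targeted ubiquitin ligases and PML bodies, nuclear structures built on SUMO, only rises were called, 2, 3, 1 and 3 in eWAT Cont, eWAT aKO, iWAT Cont and iWAT aKO, beside 11.8%, 16.6%, 10.3% and 13.6% of all genes called higher. Daxx rose by 0.58 ± 0.069 in eWAT aKO and Sp100 by 0.55 ± 0.12 in each Cont comparison. The list's medians were 0.14, 0.36, 0.18 and 0.33, against 0.023 to -0.0062 for all genes.

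The SENP3 protein works with a nucleolar complex that matures the large ribosomal subunit. Of 6 genes for its partners, 4 rose in eWAT aKO with siCEBPb and 3 in iWAT aKO, where Senp3 was also called, and 1 and 0 rose in eWAT and iWAT Cont, beside 16.6%, 13.6%, 11.8% and 10.3% of all genes called higher. The difference in response between genotypes was called by edgeR in 0 of 12 tests of these genes, with 2 at an unadjusted p under 0.05. It was called for 6.34% of all genes in eWAT and 3.51% in iWAT. Tex10 rose by 0.30 ± 0.082 and 0.40 ± 0.092, Las1l by 0.36 ± 0.082 and 0.38 ± 0.094, and Wdr18 by 0.25 ± 0.071 and 0.27 ± 0.080 in eWAT and iWAT aKO. None of the 6 was called by genotype in the edgeR fit, where 5 of 24 values had an unadjusted p under 0.05. The 4 genotype contrasts called 10.0% to 20.4% of all genes. Of the 20 NEDD8 pathway genes, the pathway of Senp8, 1, 4, 4 and 6 rose with siCEBPb in eWAT Cont, eWAT aKO, iWAT Cont and iWAT aKO and 0 fell, beside 11.8%, 16.6%, 10.3% and 13.6% of all genes called higher. Ube2m and Ube2f, the conjugating enzymes, rose by 0.21 ± 0.069 and 0.25 ± 0.076 in eWAT aKO, and Dcun1d3 by 0.32 ± 0.068.

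Of 15 genes within 250 kb of Senp2, 6 were expressed enough to test. Igf2bp2, an mRNA-binding protein gene, fell in aKO in all 4 genotype comparisons, by 0.57 ± 0.079 and 0.28 ± 0.077 in eWAT with siNS and siCEBPb and by 0.56 ± 0.090 and 0.35 ± 0.079 in iWAT (adjusted p = 4.85e-06, 0.0174, 6.14e-05 and 0.00336, edgeR). The other 5 were called in none of the 4 by edgeR, beside 10.0% to 20.4% of all genes. Of their 20 values 6 had an unadjusted p under 0.05. On average Tra2b fell by 0.14, and Tmem41a and Map3k13 rose by 0.23 and 0.31, where 32.4% of all genes were called. Senp5 shares 131 exon bases with Ncbp2 on the opposite strand, and Ncbp2 was called in none of the 17 comparisons and had 0 at an unadjusted p under 0.05 in edgeR. Senp1 shares 18 with Pfkm.

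By likeness of profile (Pearson r of log2 CPM over the 23 libraries without the shallow one, among 9637 genes), the genes nearest to Senp5 were Pdlim5 (r = 0.975), Prkar2a (0.974) and Pappa (0.966). The 23 points share the split into siNS and siCEBPb libraries. Nearest to Senp6 were Serpinb9 (0.922), Sptbn1 (0.919) and Tmeff1 (0.912), and to Senp3 Rassf1 (0.922) and Trim3 (0.922). Senp2 had no gene above 0.817 (Mphosph6), followed by Ibtk (0.797) and Suv39h1 (0.761). The nearest gene to Senp7 was Thap2 (0.861), to Senp8 Oser1 (0.789) and to Senp1 Rttn (0.723). With the shallow library included, the first 3 for Senp5 became Samd4, Ccdc6 and Csnk1g1. Within the family, r was 0.724 between Senp5 and Senp6.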

How the data were processed

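Reads of 24 poly(A) libraries (NEBNext Ultra II Directional kit, per the labels) passed through cutadapt 2.7, TopHat2 2.1.1 on GRCm38 and HTSeq, per the submitters' processing notes. HTSeq's strand option was not given in the sources used here. The deposited table held the authors' whole-number count per gene. A signal in the authors' 24 single-library files equalled these counts divided by 1 constant per library (largest deviation 7.25e-05 counts) and was left aside. Counter lines (unaligned or unassigned reads, 27.5% to 39.5% of reads, 95.9% in iWAT aKO siNS replicate 2) were left out. Symbols and exons came from GENCODE M21, which named 53360 of 53465 genes.

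Counts were fitted in R 4.3.3 with edgeR 4.0.16: filterByExpr with a minimum count of 10, TMM scaling (factors 0.985 to 1.04, and 0.840 in the shallow library), 1 mean per group, a robust quasi-likelihood fit without block, 17 contrasts, and Benjamini-Hochberg adjustment over 14785 genes with a threshold of 0.05. Intervals are 95%. CPM used TMM library sizes, and log2 CPM a prior count of 2. The scripts were checked on simulated data. Alternatives were DESeq2 1.42.0 (test and size factors), limma voom 3.58.1, other filters, the contrast's groups alone, a replicate block and each library left out. The level per kb by longest coding transcript, and group orders and sums without the shallow library, were added after the data were seen. The members, lists and rules were chosen with earlier results of these data known. Named were the 7 SENP genes, from each other list at most the 3 called genes with the smallest p in a contrast, the 3 genes most like each SENP gene, tested genes within 250 kb of Senp2, and Cebpb and Adipoq. Some genes that this rule allows are not reported here.

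Same-numbered libraries deviated together (r over 0.1 in every pair across 8159 genes) only between depots in Cont siNS, 0.270 to 0.425, and aKO siCEBPb, 0.424 to 0.748; what a number marks is not in the labels.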

Additional observations from a re-analysis of the deposited data

Results flagged for a closer look

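The Senp5 response to siCEBPb in eWAT differed between genotypes by 0.57 on the log2 scale (SE 0.12, interaction test of edgeR, adjusted p = 0.00598). The response was 0.80 in aKO, where the siCEBPb libraries stood at 97.2, 78.2 and 75.3 CPM, and 0.23 in Cont. In iWAT the same difference was 0.32 and was not called. Cebpb itself fell by 2.47 in eWAT aKO and by 1.73 in eWAT Cont; the part of this in the difference was not tested.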

How the results depend on the processing

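Over 119 pairs of a SENP gene and a contrast, 12 were called, and of 3710 alternative values 19 lost a call, 33 gained one and none of a called pair turned its sign. Of the 28 genotype comparisons 2 were called, and 1 with the DESeq2 Wald test, 4 with limma voom and 1 to 4 with a library left out. The 4 contrasts called 10.0% to 20.4% of all genes in the main fit. With DESeq2 this was 8.37% to 15.9%, with limma voom 15.1% to 30.1%, and without the shallow library 13.2% to 25.8%. Of the 7 averaged over depots and siRNAs 1 was called, 2 with limma voom, 0 with no filter on low counts and 0 to 1 with a library left out. Of all genes 32.4% were called in this average in the main fit, 40.8% with limma voom and 15.9% with no filter. The fit of the contrast's groups alone gives no value here. Of the 28 knockdown comparisons 8 were called, 5 with no filter and 6 to 9 with a library left out. The 4 contrasts called 24.3% to 35.7% of all genes in the main fit. With no filter this was 11.2% to 16.5%, and without the shallow library 29.1% to 40.7%. Of the 14 genotype by siRNA differences 1 was called, 2 with limma voom and 1 to 2 with a library left out. In eWAT and iWAT 6.34% and 3.51% of all genes were called in the main fit. With limma voom this was 13.9% and 8.35%, and without the shallow library 11.2% and 6.27%. Of the 28 depot comparisons 0 were called, 2 with the groups alone, 3 with limma voom and 0 to 2 with a library left out. The 4 contrasts called 0.352% to 3.35% of all genes in the main fit, and 0% to 22.2% with the groups alone. With limma voom this was 4.38% to 24.6%, and without the shallow library 5.49% to 11.4%. With a replicate block the counts were 3, 1, 8, 1 and 0 in the same order, the added call being Senp2 in eWAT siNS (adjusted p = 0.0419), and with depot pairs 0. The block fit called 10.3% to 20.7% of all genes in the 4 genotype contrasts. Numbers did not pair genotypes or siRNAs: same-numbered libraries had r down to -0.504 between genotypes and -0.241 between siRNAs. The causes of these changes were not tested. Depth limits Senp8 most, at 81 to 152 counts in 23 libraries.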
